A study of Mus musculus with 17 samples.

Results

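Mt1, Mt2 and Mt3 are the metallothionein genes followed here, 3 of the 55471 genes in the count table, of which 39260 had at least 1 count. They were taken by symbol, each through a single Ensembl identifier. The 17 libraries hold total RNA from the hippocampus, and their donors were male C57BL/6 mice of 3 to 6 months. CBP-ifKO mice carried floxed alleles of Crebbp, the gene of the lysine acetyltransferase CBP, and the Camk2a_creERT2 transgene, which drives a tamoxifen-inducible Cre in forebrain excitatory neurons, so that the other cells of the tissue keep CBP. All mice, controls included, received tamoxifen in 5 intragastric administrations. The methods describe the controls as littermates without creERT2, whereas the label of the control libraries names Camk2a_creERT2, and this was not resolved. The Sal groups had saline alone, without kindling. The PTZ0 and PTZ45 groups went through kindling, repeated injections of pentylenetetrazol (PTZ), which provokes seizures by antagonism at GABA-A receptors. The paper reports that these brought seizures in every control, whereas no CBP-ifKO mouse came to progressive seizures. Genotype and seizure history therefore cannot be told apart in these groups. A week after kindling PTZ0 mice received saline and PTZ45 mice received PTZ at 45 mg/kg. Hippocampi of individual mice were collected 45 min after this last injection. There were 3 libraries per group, except for 2 in Control PTZ45.

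Metallothioneins are small proteins in which cysteine residues hold zinc and copper ions, and they buffer free zinc and react with oxidants. Mt1 and Mt2 are made in most tissues and in the brain mainly in astrocytes, and their transcription rises with metals through MTF1, a zinc finger factor that binds metal response elements (MREs), and with glucocorticoids. Mt3, also known as growth inhibitory factor, is made mainly in the brain, in neurons and astrocytes, and zinc-rich glutamatergic terminals of the hippocampus are among the sites where it has been studied.

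All 3 genes lie on the forward strand of chromosome 8 in GRCm38, and each has 3 exons in its main transcript. Mt3 (ENSMUSG00000031760) spans chr8:94152607-94154146, Mt2 (ENSMUSG00000031762) chr8:94172664-94173568 and Mt1 (ENSMUSG00000031765) chr8:94179082-94180327. A further family member, Mt4 (chr8:94137197-94139031), had 3 counts in all 17 libraries together and was not followed. The coding sequences of the main transcripts are printed because they show how alike the members are and whether a read can be assigned to a single one. They are from the GENCODE M21 transcripts, 5′ to 3′ without the stop codon, with the cysteine codons in capitals.
Mt1: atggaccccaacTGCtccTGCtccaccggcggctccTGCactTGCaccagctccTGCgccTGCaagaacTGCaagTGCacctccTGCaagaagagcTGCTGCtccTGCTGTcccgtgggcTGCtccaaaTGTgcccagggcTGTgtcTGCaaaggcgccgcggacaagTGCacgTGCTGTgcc
Mt2: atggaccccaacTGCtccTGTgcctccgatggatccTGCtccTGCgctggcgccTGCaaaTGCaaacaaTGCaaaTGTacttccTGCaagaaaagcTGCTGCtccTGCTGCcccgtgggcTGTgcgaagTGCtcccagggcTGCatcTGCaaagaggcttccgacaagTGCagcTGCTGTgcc
Mt3: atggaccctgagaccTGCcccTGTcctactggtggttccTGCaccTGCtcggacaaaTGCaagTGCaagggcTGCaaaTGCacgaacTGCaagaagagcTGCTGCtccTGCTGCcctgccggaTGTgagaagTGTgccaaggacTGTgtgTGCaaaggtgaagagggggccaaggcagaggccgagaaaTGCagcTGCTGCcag
Each member has 20 cysteine codons, of 61 codons in Mt1 and Mt2 and 68 in Mt3. Over the aligned coding bases, Mt1 and Mt2 were 79.2% identical, Mt1 and Mt3 73.2%, and Mt2 and Mt3 74.9%. The longest identical stretch was 27 bases, and no window of 50 bases, the read length, was shared between the annotated transcripts of any pair. A full-length read therefore fits a single member exactly.

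The annotated 5′ ends were inspected for MREs because Mt1 and Mt2 are the classic targets of MTF1. MRE cores were searched as TGCACNC or TGCGCNC and the TATA box as TATAAA, on both strands, with matches counted at every position. The annotated 5′ UTR held 4 MRE cores in Mt1 (229 bases), 3 in Mt2 (184 bases) and 3 in Mt3 (193 bases), and in each gene the cores lay before a TATA box. The TATA box lay 128, 89 and 106 bases after the annotated start of Mt1, Mt2 and Mt3. Whether the bases before it are transcribed was not tested. At least as many cores were found in 0.216% of transcripts over the 229 bases before the start codon, in 0.461% over 184 bases and in 0.534% over 193 bases. Each site is printed with 6 bases on either side as it reads on the forward strand of GRCm38, from the GENCODE M21 transcripts, with the motif in capitals.
Mt1 MRE core, + strand, chr8:94179085-94179103: gagctcTGCACTCcgcccg
Mt1 MRE core, + strand, chr8:94179103-94179121: gaaaagTGCGCTCggctct
Mt1 MRE core, - strand, chr8:94179167-94179185: cctgctGGGTGCAaaccct
Mt1 MRE core, + strand, chr8:94179181-94179199: acccttTGCGCCCggactc
Mt1 TATA box, + strand, chr8:94179204-94179221: aacgacTATAAAgagggc
Mt2 MRE core, - strand, chr8:94172670-94172688: aagggcGTGTGCAggcggc
Mt2 MRE core, - strand, chr8:94172689-94172707: gggggcGCGTGCAtggtgc
Mt2 MRE core, + strand, chr8:94172723-94172741: agctttTGCGCTCgaccca
Mt2 TATA box, + strand, chr8:94172747-94172764: ctccgcTATAAAggtcgc
Mt3 MRE core, + strand, chr8:94152628-94152646: cagcagTGCACACacacgg
Mt3 MRE core, - strand, chr8:94152655-94152673: cgctgtGCGTGCAtagggg
Mt3 MRE core, + strand, chr8:94152687-94152705: gctgctTGCGCGCccccgc
Mt3 TATA box, + strand, chr8:94152707-94152724: tggggcTATAAAagcctt
The RefSeq promoter table of GRCm38.p6 was searched in the same way in the 250 bases before each gene's RefSeq start (243 bases for Mt1, up to its Ensembl start). At least 1 MRE core was found in 21.4% of the 32851 promoters and at least 3 in 1.26%. There was 1 in the window of Mt1, 3 in that of Mt2 and 0 in that of Mt3. The window of Mt2 (chr8:94172368-94172617, forward strand) is printed as the member with most cores there, with the MRE cores in capitals. It also held 1 antioxidant response element core (TGACNNNGC, both strands, not overlapping an MRE core), a motif found in 10.2% of promoters.
Mt2 upstream window: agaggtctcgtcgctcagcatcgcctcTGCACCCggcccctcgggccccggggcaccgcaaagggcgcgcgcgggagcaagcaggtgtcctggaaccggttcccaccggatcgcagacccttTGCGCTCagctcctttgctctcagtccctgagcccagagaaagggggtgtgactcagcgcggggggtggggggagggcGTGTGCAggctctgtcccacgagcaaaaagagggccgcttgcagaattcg
The matches describe these letters, and binding was not measured.

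**Figure D1:**
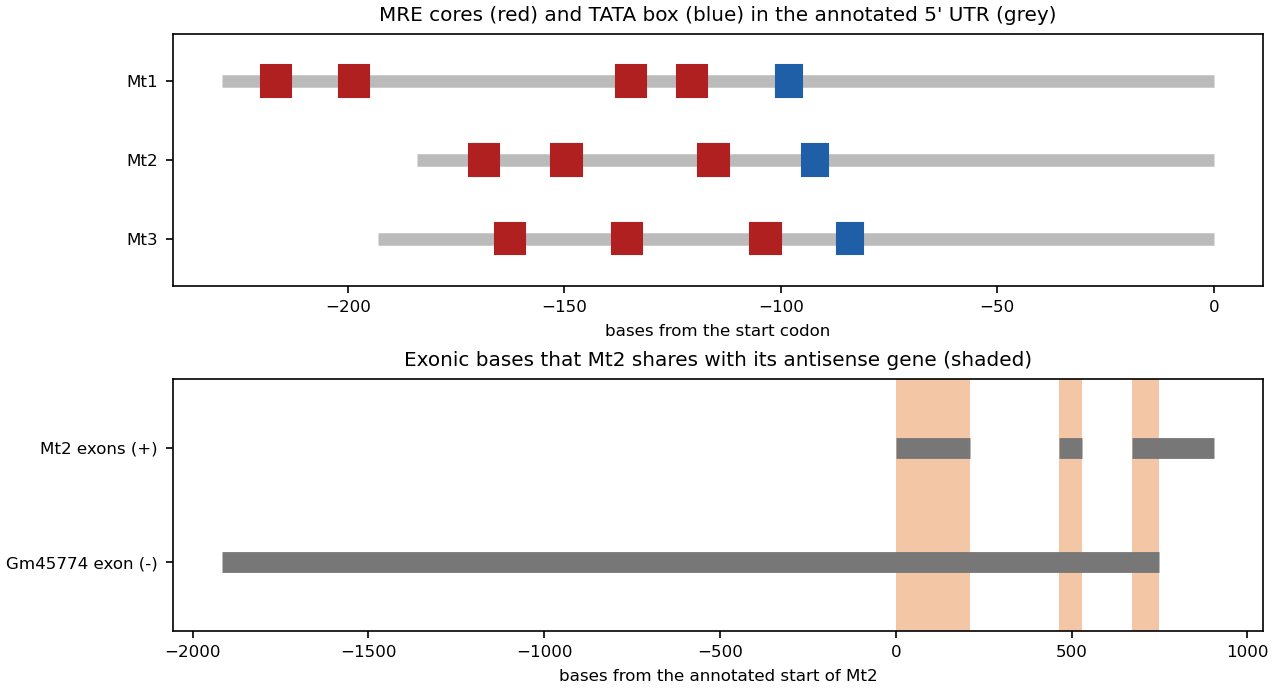
Upper panel, positions of MRE cores (red) and of the TATA box (blue) in the annotated 5′ UTR (grey) of the main transcript of each member, in bases from the start codon. Lower panel, exons of the main transcript of Mt2 and of the antisense gene Gm45774, in bases from the annotated start of Mt2, with the 355 shared exonic bases shaded.

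The Mt2 counts had a limit that Mt1 and Mt3 did not share. Gm45774, an antisense gene on the reverse strand (chr8:94170748-94173412), covers 432 of the 588 exonic bases of Mt2 and leaves 156. Of 436 genes wholly covered by exons of the opposite strand 435 had 0 counts in all libraries, against 31.9% of genes that share no base. Reads on bases that genes share were thus left out of this table whatever their strand. The Mt2 counts came from the bases that it holds alone and understate its level, and Gm45774 itself had 137 counts in the 17 libraries. Mt1 and Mt3 share no exonic base with another gene.

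Depth ranged from 5831992 to 18735643 counts per library. Mt1 had between 467 and 1952 raw counts in a library, Mt2 between 91 and 335, and Mt3 between 582 and 2121. Crebbp, the targeted gene, had 1061 to 1337 normalized counts in the 9 CBP-ifKO libraries and 1824 to 2429 in the 8 control libraries. Fos, an activity-induced gene, had 2483 to 2915 in Control PTZ45, 163 to 288 in CBP-ifKO PTZ45 and at most 62.4 in any library of the other groups. The excitatory neuron markers of the hippocampus were present in every library, with 29107 to 42864 normalized counts over 8 genes. Lanes 3, 4 and 5 of the labels each held 2 groups: Control Sal and Control PTZ0 in lane 3, Control PTZ45 and CBP-ifKO Sal in lane 4, and CBP-ifKO PTZ0 and PTZ45 in lane 5. Summed markers of the choroid plexus, the epithelium that borders the hippocampus, stood at 10932 to 44800 normalized counts in 5 libraries and at 455 to 1175 in the other 12. The 5 libraries were Control Sal replicate 2, Control PTZ0 replicate 2, CBP-ifKO Sal replicate 1, CBP-ifKO PTZ0 replicate 3 and CBP-ifKO PTZ45 replicate 2. Genotype differences, the calls between treatments, and the correlations and likeness ranks of the members are given with and without them.

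Levels between the genes were compared per length, as the CPM of a gene (its counts scaled to a common library total) per kilobase. Divided by the bases of the main transcript that no other gene shares, all counts of a gene gave 206 ± 33.6 (SD, n = 17 libraries) for Mt3, 162 ± 30.9 for Mt1 and 117 ± 22.8 for Mt2. The value of Mt2 rests on 156 bases at the end of its last exon. Reads that reach from these into shared bases may be left out too, so that the place of Mt2 in this order is not settled. Over the exonic bases of all annotated transcripts, the values were 104 ± 16.9 for Mt3 and 71.5 ± 13.6 for Mt1. Among the 13041 genes whose mean normalized count reached 50, Mt3 stood at the 98.7th percentile of the normalized count per kilobase and Mt1 at the 97.6th. Both are thus among the abundant transcripts of this tissue. The remaining values are normalized counts, that is, counts divided by the size factor of the library, and are compared only within a gene.

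Mt1 was lower in CBP-ifKOs than in controls. In controls Mt1 had 1521, 1401 and 1215 normalized counts in the 3 Sal libraries, 1239, 1096 and 1110 in PTZ0, and 1183 and 1282 in PTZ45. In CBP-ifKOs Mt1 had 806, 969 and 1290 in Sal, 877, 998 and 895 in PTZ0, and 837, 793 and 1109 in PTZ45. The 3 PTZ0 libraries of CBP-ifKOs lay below those of controls with no overlap, as did the PTZ45 libraries, whereas in Sal the third CBP-ifKO library lay within the control range. With at most 3 libraries an arm, such separation can also arise by chance. The share of all genes that separate so was not counted in any comparison. Of the 9 CBP-ifKO libraries, 7 lay below the lowest control library. Over all treatments Mt1 was lower in CBP-ifKOs by a log2 fold change of -0.39 ± 0.08 (SE), 0.76-fold, with an adjusted p of 4.35e-05 (DESeq2, Benjamini-Hochberg over all genes). Of all genes tested there, 11.5% were called lower in this comparison, and 7.76% higher. Within treatments the log2 fold change of Mt1 was -0.32 ± 0.08 in PTZ0 (adjusted p = 0.00584, 5.25% of genes called lower) and -0.43 ± 0.13 in PTZ45 (adjusted p = 0.0455, 2.82% called lower). In Sal it was -0.44 ± 0.14 with an adjusted p of 0.0752, where 2.04% of genes were called in either direction, and it was -0.66 and called without CBP-ifKO Sal replicate 3 and -0.28 without CBP-ifKO Sal replicate 1. The PTZ45 call rested on 2 control libraries and was lost without Control PTZ45 replicate 1 or replicate 2, or without CBP-ifKO PTZ45 replicate 1 or replicate 2, with a highest adjusted p of 0.655. It was also lost with edgeR, the minimum count filter, one fit of all 17 libraries and the replicate block (adjusted p from 0.0565 to 0.0782). The PTZ0 call was lost without Control PTZ0 replicate 1 or CBP-ifKO PTZ0 replicate 3, with a highest adjusted p of 0.186, and was made in 9 of 14 alternatives.

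Mt2 was also lower in CBP-ifKOs. In controls Mt2 had 261, 309 and 236 normalized counts in Sal, 288, 230 and 254 in PTZ0, and 265 and 229 in PTZ45. In CBP-ifKOs Mt2 had 157, 189 and 239 in Sal, 185, 203 and 162 in PTZ0, and 214, 148 and 242 in PTZ45. In PTZ0 the genotypes did not overlap, while in Sal and in PTZ45 the highest CBP-ifKO library lay within the control range. Again 7 of the 9 CBP-ifKO libraries lay below the lowest control library, and 5 of the 8 control libraries lay above the highest CBP-ifKO library. With all treatments together Mt2 had a log2 fold change of -0.43 ± 0.10, 0.74-fold, with an adjusted p of 4.15e-04 (DESeq2). In PTZ0 it was -0.49 ± 0.15 (adjusted p = 0.0201). It was -0.46 ± 0.18 in Sal (adjusted p = 0.2) and -0.30 ± 0.21 in PTZ45 (adjusted p = 0.691), neither called, and the Sal difference was -0.66 and called without CBP-ifKO Sal replicate 3 and -0.30 without CBP-ifKO Sal replicate 1. The PTZ0 call was lost without any of 4 libraries, namely Control PTZ0 replicates 1 and 3 and CBP-ifKO PTZ0 replicates 1 and 3, with a highest adjusted p of 0.318, and was made in 5 of 13 alternatives.

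Mt3 was called lower in CBP-ifKOs in PTZ0 alone among the comparisons of genotype. In controls Mt3 had 1573, 1658 and 1371 normalized counts in Sal, 1605, 1664 and 1469 in PTZ0, and 1230 and 1098 in PTZ45. In CBP-ifKOs Mt3 had 997, 1208 and 1567 in Sal, 1395, 1349 and 1167 in PTZ0, and 1068, 1168 and 1493 in PTZ45. The genotypes did not overlap in PTZ0 and overlapped in Sal and in PTZ45, where the mean of CBP-ifKOs was the higher. The log2 fold change was -0.28 ± 0.08 in PTZ0 (adjusted p = 0.0164), -0.29 ± 0.13 in Sal (adjusted p = 0.373) and 0.09 ± 0.13 in PTZ45 (adjusted p = 0.909). Over all treatments it was -0.18 ± 0.09 with an adjusted p of 0.147, and it was -0.23 and called without CBP-ifKO Sal replicate 3 or without CBP-ifKO PTZ45 replicate 3. In Sal it was -0.49 and called without CBP-ifKO Sal replicate 3, and -0.14 without CBP-ifKO Sal replicate 1. The PTZ0 call was lost without Control PTZ0 replicate 1 or replicate 2 or without CBP-ifKO PTZ0 replicate 3, with a highest adjusted p of 0.267, and was made in 7 of 14 alternatives. Whether the genotype difference of Mt3 is smaller than that of Mt1 or Mt2 was not tested. In bulk tissue, fewer cells of a type and less RNA per cell cannot be told apart for any of these differences.

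**Figure D2:**
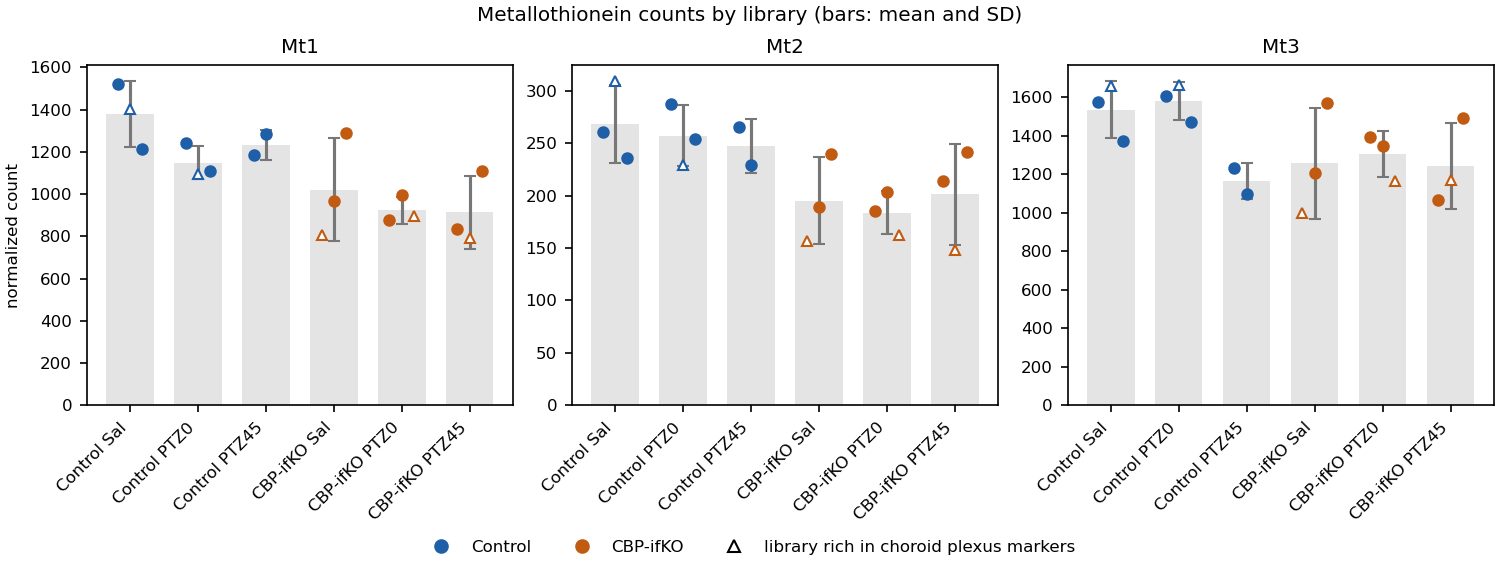
Normalized counts (counts divided by the library's size factor) of Mt1, Mt2 and Mt3 in each of the 17 libraries by group, with bars for the group mean and lines for 1 SD. Open triangles are the 5 libraries rich in choroid plexus markers, and in CBP-ifKOs these are the lowest library of the group except for Mt1 in PTZ0 and for Mt3 in PTZ45.

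The members were also read by whether a library was rich in choroid plexus markers. In CBP-ifKOs the 3 such libraries had 793 to 895 normalized counts of Mt1, against 837 to 1290 in the other 6. For Mt2 the ranges were 148 to 162 and 185 to 242, with no overlap, and for Mt3 997 to 1168 and 1068 to 1567. In controls the 2 such libraries had 1096 and 1401 for Mt1, 230 and 309 for Mt2 and 1664 and 1658 for Mt3. For Mt1 these were the lowest and the second highest control value, and for Mt3 the highest values of all. Without the 5 libraries the genotype difference over all treatments was -0.31 ± 0.08 for Mt1 (DESeq2 adjusted p = 0.00392), -0.26 ± 0.10 for Mt2 (adjusted p = 0.0542) and -0.04 ± 0.08 for Mt3 (adjusted p = 0.844). Within treatments no member was called in this smaller set, where genotype differences in PTZ0 were -0.32 ± 0.12 for Mt1, -0.48 ± 0.20 for Mt2 and -0.16 ± 0.11 for Mt3. In Sal they were -0.28 ± 0.17, -0.20 ± 0.22 and -0.09 ± 0.15 in the same order, against -0.44, -0.46 and -0.29 with all libraries. In PTZ45 they were -0.34 ± 0.15, -0.12 ± 0.21 and 0.14 ± 0.16, against -0.43, -0.30 and 0.09. The Mt1 difference over all treatments was thus called in the remaining 12 libraries, and that of Mt2 did not pass the threshold.

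Lane was a second limit on the genotype comparisons. Each of the 3 comparisons within a treatment set a lane against another, and lane and genotype cannot be told apart in them. With lane as a term over all 17 libraries, the genotype difference was -0.55 ± 0.24 for Mt1 (DESeq2 adjusted p = 0.594), -0.27 ± 0.32 for Mt2 (adjusted p = 0.999) and 0.08 ± 0.24 for Mt3 (adjusted p = 0.999). None was called, and 135 genes in all were, against 3606 without the term. With the term, the genotype difference is built from differences within a lane alone. These are CBP-ifKO Sal minus Control PTZ45, Control PTZ0 minus Control Sal and CBP-ifKO PTZ45 minus CBP-ifKO PTZ0. The fit takes the PTZ response to be equal in both genotypes, whereas that of Fos differed (interaction over Sal -3.18 ± 0.52). Without that equality it cannot tell lane from genotype.

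Between treatments Mt3 was the only member called, and in controls only. Mt3 was lower in the 2 Control PTZ45 libraries (1230 and 1098) than in all 3 Control Sal libraries (1371 to 1658) and all 3 Control PTZ0 libraries (1469 to 1664). The log2 fold change was -0.40 ± 0.11 against Sal, 0.76-fold (DESeq2 adjusted p = 0.0207), where 0.236% of genes were called lower. It was -0.44 ± 0.09 against PTZ0, 0.74-fold (adjusted p = 1.11e-04), where 0.0667% were called lower. The 2 comparisons share the Control PTZ45 libraries. The call against PTZ0 was made whichever library was left out, among them Control PTZ0 replicate 2, the one library there rich in choroid plexus markers (-0.40, adjusted p = 0.0346). It was lost in one fit of all 17 libraries (-0.44, adjusted p = 0.177) and with the replicate block and GC correction together (-0.31, adjusted p = 1). The call against Sal was lost without Control PTZ45 replicate 1 or 2, and without Control Sal replicate 1 or 2. Control Sal replicate 2 is the one library rich in choroid plexus markers in this comparison (-0.34 without it, adjusted p = 0.628). The call was also lost with edgeR (-0.40, adjusted p = 0.0686), in one fit of all 17 libraries, after GC correction and with the replicate block. In CBP-ifKOs the PTZ45 libraries (1068 to 1493) lay within the range of the Sal libraries and overlapped those of PTZ0. The log2 fold change there was -0.02 ± 0.24 against Sal and -0.07 ± 0.11 against PTZ0, with 95% intervals from -0.49 to 0.45 and from -0.29 to 0.15. Tested directly, the response of Mt3 in CBP-ifKOs minus that in controls was 0.37 ± 0.16 over PTZ0 (unadjusted p = 0.0178, adjusted p = 1) and 0.38 ± 0.29 over Sal (unadjusted p = 0.195, adjusted p = 1). Neither difference was called, in interaction tests that called 0.423% and 0.329% of genes. Control PTZ45 was in lane 4 and both other control groups in lane 3, so that PTZ and lane cannot be told apart in controls.

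Mt1 and Mt2 were not called in any comparison of treatments. Of the Control PTZ45 libraries, that with 1183 counts of Mt1 lay below all of Control Sal (1215 to 1521) and that with 1282 lay within this range, and the log2 fold change was -0.17 ± 0.11 (95% interval -0.38 to 0.05). Against PTZ0 it was 0.10 ± 0.09. The largest difference of Mt1 between treatments was between Control PTZ0 and Control Sal, which shared lane 3, at -0.26 ± 0.09, with an unadjusted p of 0.00239 and an adjusted p of 1 (DESeq2), where 0.00843% of genes were called. With each library left out in turn it ran from -0.35 to -0.18. Their libraries overlapped, with 1096 to 1239 and 1215 to 1521 normalized counts. In CBP-ifKOs the log2 fold change of Mt1 was -0.15 ± 0.14 for PTZ0 against Sal, -0.17 ± 0.24 for PTZ45 against Sal and -0.02 ± 0.12 for PTZ45 against PTZ0. For Mt2 the 6 comparisons of treatments within a genotype gave log2 fold changes from -0.11 to 0.13, each smaller than its SE. The background in CBP-ifKOs was 0.0112% of genes called in PTZ0 against Sal, 0.294% in PTZ45 against Sal and 0.0872% in PTZ45 against PTZ0, the last within lane 5.

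With both genotypes fitted together no member was called. PTZ45 against Sal gave -0.17 ± 0.10 for Mt1, -0.03 ± 0.13 for Mt2 and -0.18 ± 0.11 for Mt3, where 6.76% of genes were called. PTZ45 against PTZ0 gave 0.04 ± 0.10, 0.05 ± 0.13 and -0.22 ± 0.11 in the same order, where 1.74% were called, and Mt3 was -0.33 and called without CBP-ifKO PTZ45 replicate 3, -0.10 after GC correction and -0.07 with lane as a term. PTZ0 against Sal gave -0.21 ± 0.10, -0.07 ± 0.12 and 0.05 ± 0.10, where DESeq2 called 0 genes (0.0%). In that comparison 222 genes were higher and 328 lower at an unadjusted p under 0.05, and edgeR also called 0. The differences of the Mt1 and Mt2 responses between genotypes were near 0 relative to their errors, at -0.0019 ± 0.31 and 0.15 ± 0.27 over Sal and at -0.12 ± 0.16 and 0.19 ± 0.24 over PTZ0.

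By group mean the order of Mt1 was Control Sal (1379 ± 154, SD), Control PTZ45 (1233 ± 69.9, n = 2), Control PTZ0 (1149 ± 78.9), CBP-ifKO Sal (1021 ± 246), CBP-ifKO PTZ0 (923 ± 65.2) and CBP-ifKO PTZ45 (913 ± 172). Every group overlapped its neighbour in this order. Mt2 ran from Control Sal (269 ± 37.1) through Control PTZ0 (257 ± 29.3) and Control PTZ45 (247 ± 25.5) to CBP-ifKO PTZ45 (201 ± 48.2), CBP-ifKO Sal (195 ± 41.6) and CBP-ifKO PTZ0 (184 ± 20.5), and neighbours again overlapped. For both genes the 3 control groups came before the 3 CBP-ifKO groups, also after GC correction. Mt3 had another order, with Control PTZ0 (1579, range 1469 to 1664) and Control Sal (1534 ± 147) first, then CBP-ifKO PTZ0 (1304 ± 121), CBP-ifKO Sal (1257 ± 289) and CBP-ifKO PTZ45 (1243 ± 222), and Control PTZ45 (1164 ± 93.1) last. Neighbours overlapped here too. After GC correction the order of Mt3 was another, with CBP-ifKO PTZ45 (1351 ± 192) next after both other control groups and Control PTZ45 (1230.1 ± 35.8) before CBP-ifKO Sal (1221 ± 234), which was last. For Mt1 the spread within a group was widest in CBP-ifKO Sal, with a coefficient of variation of 24.1%.

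The ratio of Mt3 to Mt1 counts within a library ran from 0.857 to 1.59 with a median of 1.28. It was 1.03, 1.18 and 1.13 in Control Sal, 1.29, 1.52 and 1.32 in Control PTZ0, and 1.04 and 0.857 in Control PTZ45. In CBP-ifKOs it was 1.24, 1.25 and 1.22 in Sal, 1.59, 1.35 and 1.30 in PTZ0, and 1.28, 1.47 and 1.35 in PTZ45. The Control PTZ45 libraries therefore held less Mt3 per Mt1 than any library of PTZ0 or of the CBP-ifKOs. The ratio of Mt1 to Mt2 counts was 3.90 to 5.83, with a median of 4.91, and overlapped between the genotypes. These ratios are descriptions and were not tested.

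GC content was examined because the libraries differed in how counts vary with it. The exonic GC content was 54.3% in Mt1, 54.8% in Mt2 and 57.97% in Mt3, against a median of 48.1% over 13034 genes, and Mt3 stood at the 93.2nd percentile. Across genes, Spearman's rho between GC content and the log2 fold change was -0.57 in Control PTZ45 against Control Sal, -0.53 against Control PTZ0 and -0.14 between genotypes over all treatments. Genes are not independent replicates, and these are descriptions. At the GC content of Mt3, the smooth trend of a library ran from 0.06 to 0.13 on the log2 scale in Control Sal, from 0.01 to 0.12 in Control PTZ0, and was -0.13 and -0.03 in Control PTZ45. It was -0.21 to -0.08 in CBP-ifKO PTZ45. The trends at Mt1 and Mt2 had the same sign by group and were smaller on average.

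With this trend removed, the difference of Mt3 in controls was smaller. Against Sal it was -0.23 ± 0.10 (DESeq2 adjusted p = 1) and no longer called. Against PTZ0 it was -0.29 ± 0.08 (adjusted p = 0.0217) and still called. The corrected counts of Mt3 were 1255 and 1205 in Control PTZ45, below the 1458 to 1577 of Control PTZ0 and the 1292 to 1515 of Control Sal. The genotype difference of Mt3 in PTZ0 became -0.19 ± 0.08 (adjusted p = 0.132). For Mt1 the genotype difference was -0.36 ± 0.08 over all treatments (adjusted p = 1.22e-04), -0.26 ± 0.09 in PTZ0 (adjusted p = 0.0422) and -0.43 ± 0.13 in PTZ45 (adjusted p = 0.0358), all called. For Mt2 it was -0.39 ± 0.10 over all treatments (adjusted p = 0.00102), and -0.43 ± 0.15 in PTZ0 with an adjusted p of 0.0576.

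**Figure D3:**
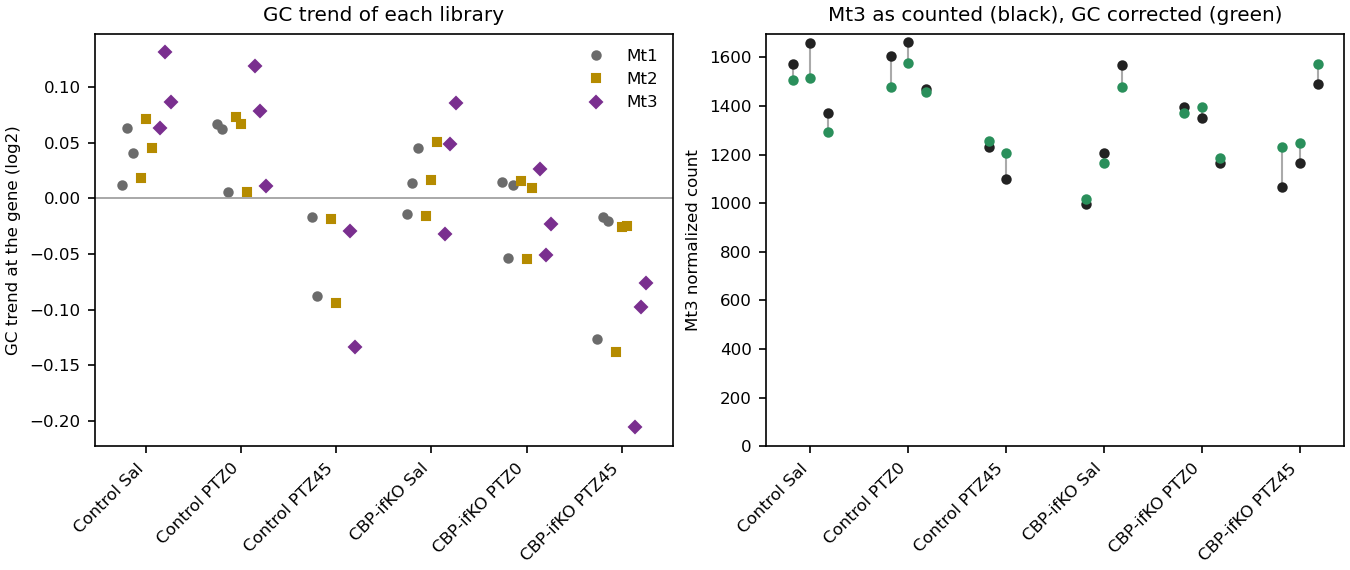
Left, the smooth trend over GC content in each library, read at the GC content of Mt1, Mt2 and Mt3 on the log2 scale. Right, Mt3 normalized counts in each library as counted and after removal of the trend, with the 2 Control PTZ45 libraries at 1098 and 1230 before and 1205 and 1255 after it.

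**Figure D4:**
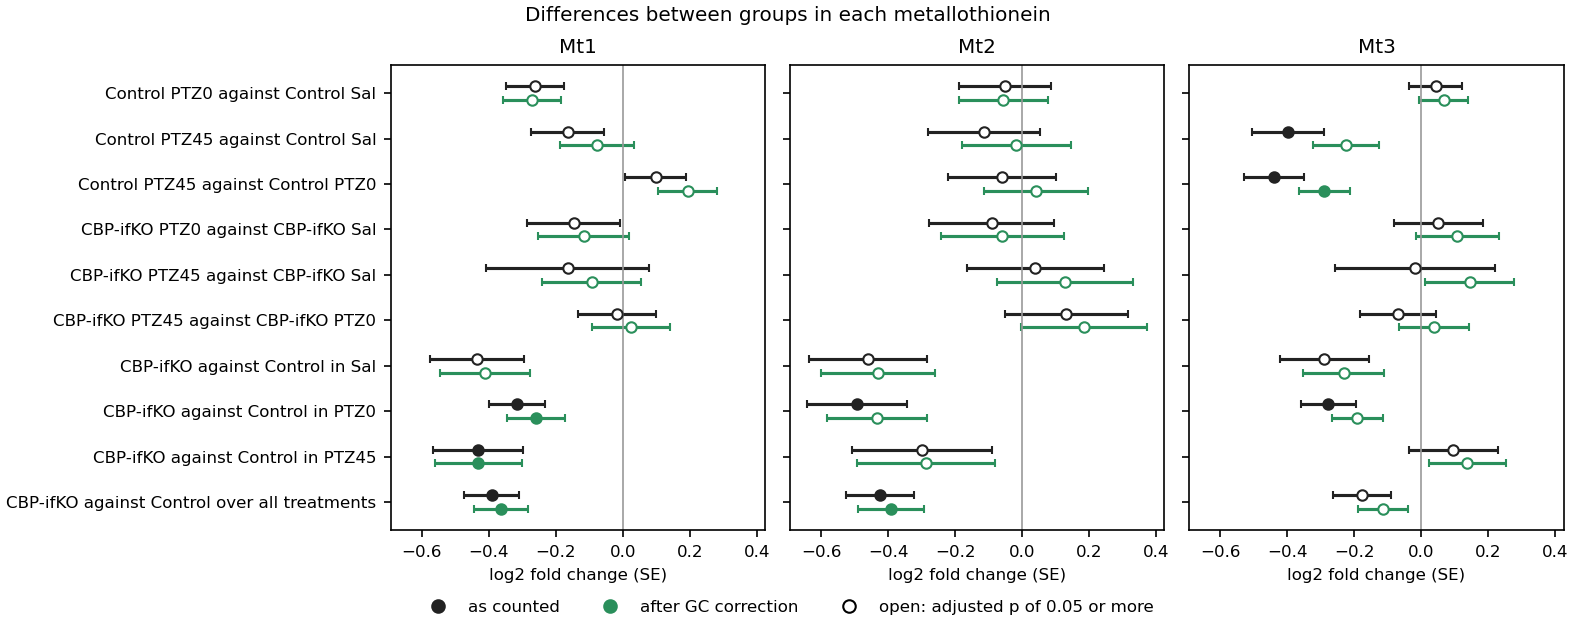
Log2 fold changes of each member with their SE in the comparisons within a genotype, between genotypes in each treatment and between genotypes over all treatments, as counted (black) and after GC correction (green). Filled points have a DESeq2 adjusted p under 0.05, and after correction these are Mt3 in Control PTZ45 against Control PTZ0, Mt1 between genotypes in PTZ0, in PTZ45 and over all treatments, and Mt2 over all treatments.

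The members varied together over the 17 libraries. On the log2 scale, Pearson's r was 0.86 for Mt1 with Mt2, 0.67 for Mt1 with Mt3 and 0.69 for Mt2 with Mt3, and Spearman's rho was 0.84, 0.62 and 0.70. In permutation tests (two-sided, 100000 resamples, n = 17) the p of Pearson's r was 3.0e-05, 0.00438 and 0.00291, or 1.8e-04, 0.00657 and 0.00582 after adjustment over the 6 relations examined. The p of rho was 5.0e-05, 0.00945 and 0.00261, or 3.0e-04, 0.0142 and 0.00783 adjusted. Without the 2 libraries farthest from the median, r was 0.79, 0.55 and 0.57. As residuals from the group means, which leave the variation within groups, r was 0.78, 0.83 and 0.71, with permutation p adjusted over the 6 relations of 0.0523, 0.0523 and 0.0774. Within lane 3 r was 0.56, 0.22 and 0.45 and within lane 5 it was 0.73, 0.78 and 0.46, with 6 libraries each, while lane 4 held 5 libraries and was not used. Within controls (n = 8) r was 0.44, 0.12 and 0.46, and within CBP-ifKOs (n = 9) 0.81, 0.84 and 0.68. After GC correction r over all libraries was 0.85, 0.55 and 0.62. Over the 12 libraries not rich in choroid plexus markers it was 0.73, 0.48 and 0.46.

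**Figure D5:**
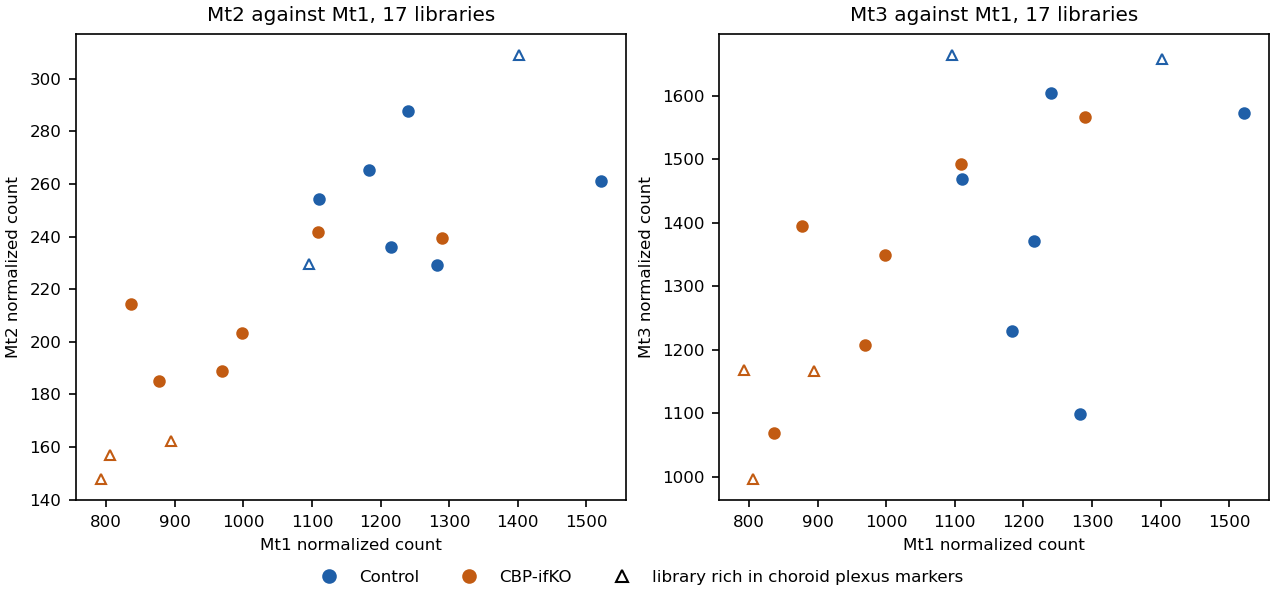
Normalized counts of Mt2 (left) and Mt3 (right) against Mt1 in the 17 libraries, coloured by genotype, with open triangles for the 5 libraries rich in choroid plexus markers. Mt2 and Mt1 run together over all libraries, and the 2 Control PTZ45 libraries, with 1183 and 1282 counts of Mt1, have the lowest Mt3 of the controls.

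Astrocyte markers were examined beside the members because astrocytes are a main source of Mt1 and Mt2. All 15 markers were detected, with means of at least 10 normalized counts, and their summed level was 86214 to 95115 in controls and 80292 to 89365 in CBP-ifKOs. Over all treatments 7 of the 15 were called lower in CBP-ifKOs and 1 higher, with a median log2 fold change of -0.11 against 0.0098 over all genes tested, of which 11.5% were called lower and 7.76% higher. The 5 with the smallest adjusted p were Slc1a3, a glutamate transporter (-0.18 ± 0.03), Glul, glutamine synthetase (-0.19 ± 0.04), Aldoc, an aldolase (-0.24 ± 0.06), S100b, a calcium-binding protein (-0.24 ± 0.06), and Acsbg1, an acyl-CoA synthetase (-0.24 ± 0.06). Of the 8 calls, 7 were made after GC correction, 0 with lane as a term and 4 without the libraries rich in choroid plexus markers. Over the 17 libraries the summed markers had an r of 0.57 with Mt1 (adjusted permutation p = 0.0216), 0.69 with Mt2 (0.00582) and 0.15 with Mt3 (0.556). As residuals from the group means r was -0.14, 0.31 and -0.24, with permutation p of 0.714, 0.468 and 0.499. After GC correction r was 0.69, 0.79 and 0.28, and as residuals 0.22, 0.60 and 0.098. Over the 12 libraries not rich in choroid plexus markers r was 0.25, 0.38 and -0.36. Within controls r was 0.04, -0.02 and -0.58 and within CBP-ifKOs -0.04, 0.46 and -0.15. Markers of other cell types were read in the same comparison. The median log2 fold change was -0.16 in oligodendrocyte markers (1 of 10 called lower, Olig1), -0.14 in microglia markers (0 of 10 called), -0.14 in interneuron markers (2 of 7 called lower, Gad1 and Sst) and -0.056 in endothelial markers (1 of 8 called lower, Ly6c1), and the counts in oligodendrocyte and endothelial markers are near the share of all genes called lower. Of 8 excitatory neuron markers 2 were called higher, Prox1 and Neurod2, and 2 lower, Wfs1 (-1.11 ± 0.07) and Grik4. The part of any of these cell types in the genotype difference of the members was not tested.

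The other genes of metal handling were read from the same fits. Neither Mtf1, which encodes the metal-responsive factor, nor its relative by name Mtf2 was called between genotypes over all treatments. Mtf1 had 340 to 394 normalized counts in the controls and 369 to 429 in CBP-ifKOs. Of the zinc exporters (Slc30a, 9 of 10 with an adjusted p) 2 were called higher in CBP-ifKOs over all treatments, where 7.76% of all genes were called higher. These were Slc30a10, by 0.21 ± 0.06 (DESeq2 adjusted p = 0.00671), and Slc30a7, by 0.15 ± 0.05 (0.0165). Of the zinc importers (Slc39a, 13 of 14) 2 were called lower, where 11.5% of all genes were called lower. Slc39a10 had 1964 to 2309 normalized counts in the controls and 1582 to 1936 in CBP-ifKOs, with no overlap between the genotypes, and its log2 fold change was -0.28 ± 0.04 (adjusted p = 6.40e-09). It was also called lower in Sal (-0.30 ± 0.09) and in PTZ0 (-0.25 ± 0.07), and neither of these 2 calls was made without the libraries rich in choroid plexus markers, at -0.28 ± 0.13 (adjusted p = 0.938) and -0.19 ± 0.10 (adjusted p = 0.852). Slc39a6 had -0.11 ± 0.04 (adjusted p = 0.0272). The medians were 0.03 in exporters and 0.07 in importers, against 0.0098 over all genes. All 4 calls over all treatments were also made after GC correction, none with lane as a term, and those of Slc30a10 and Slc39a10 without the libraries rich in choroid plexus markers.

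With PTZ45 against PTZ0 over both genotypes, Slc30a1, the exporter of the plasma membrane and itself an MTF1 target, was called higher by 0.21 ± 0.06 (DESeq2 adjusted p = 0.0252). Mtf2, related to Mtf1 by name, was higher by 0.16 ± 0.05 (0.0471). Both were also called higher against Sal, by 0.22 ± 0.06 and 0.24 ± 0.05. Slc30a3, which loads zinc into synaptic vesicles, had -0.38 ± 0.11 (0.0457), with 281 and 287 normalized counts in Control PTZ45 against 367 to 395 in Control PTZ0. In CBP-ifKOs Slc30a3 had 270 to 289 in PTZ45 and 285 to 436 in PTZ0, which overlapped. Within either genotype no zinc exporter was called in PTZ45 against PTZ0. None of these calls over both genotypes was made after GC correction or with lane as a term, and of the calls against PTZ0 only that of Slc30a3 was made without the libraries rich in choroid plexus markers. With lane as a term, PTZ45 against PTZ0 rests on CBP-ifKO libraries alone.

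Of 13 genes of copper handling, 1 of the 12 with an adjusted p was called between genotypes over all treatments, Prnp, the prion protein, a copper-binding protein (-0.16 ± 0.05). The median of the list was 0.10. Of 16 oxidative stress genes 1 was called, Nfe2l2, the gene of the transcription factor Nrf2, higher by 0.29 ± 0.07, with a median of 0.0089. Against the 11.5% of all genes called lower and the 7.76% called higher in this comparison, the counts of zinc importers, copper and oxidative stress genes were near the share over all genes. The calls of Prnp and Nfe2l2 were made after GC correction, and neither with lane as a term or without the libraries rich in choroid plexus markers. A list of glucocorticoid-responsive genes, named because glucocorticoids induce Mt1 and Mt2, had 8 of the 17 with an adjusted p called lower in CBP-ifKOs and 0 higher, with a median of -0.19 against 0.0098 over all genes. Its 5 genes with the smallest adjusted p were Sgk1 (-0.47 ± 0.07), Dusp1 (-0.94 ± 0.20), Cdkn1a (-1.01 ± 0.24), Tsc22d3 (-0.25 ± 0.06) and Per1 (-0.62 ± 0.16). Dusp1 and Per1 are also induced by neuronal activity, and in controls both rose with PTZ45 over PTZ0, by 2.75 ± 0.16 and 1.26 ± 0.12. Errfi1, also among the 8, rose there by 1.18 ± 0.11. Of the 8, 7 were called after GC correction, 3 with lane as a term and 4 without the libraries rich in choroid plexus markers.

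The genes with the pattern most like each member were found by Pearson's r over the 17 libraries among 13040 other genes whose mean normalized count reached 50, as a description. For Mt1 they were Stmn3 (r = 0.95), Tubb3 (0.94), Fam131a (0.92), Park7 (0.91) and Car7 (0.91). For Mt2 they were Arf1 (0.95), Npy5r (0.93), B4galnt4 (0.91), Arpc1a (0.91) and Ubl3 (0.91), and for Mt3 Usp5 (0.96), Gpr37l1 (0.95), Sh3glb2 (0.95), Tmem59l (0.94) and Rnf187 (0.93). Mt2 ranked 51st for Mt1 and Mt3 ranked 1046th, or 95th and 2278th after GC correction and 305th and 1903rd over the 12 libraries not rich in choroid plexus markers. Of the 5 genes named for each member, Stmn3 and Tubb3 for Mt1, Arf1 for Mt2 and Usp5 for Mt3 were among the 5 most like it over those 12 libraries. After GC correction, Stmn3 (0.94) and Car7 (0.90) remained among the 5 genes most like Mt1, joined by Dennd1b, Elf2 and Brinp3. Of the genes named above, Arf1 (0.93) remained for Mt2 and Usp5 (0.92) for Mt3. All points share the same libraries, and each r is over 17 of them.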

How the data were processed

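Per the labels and the methods, the authors sequenced total RNA as single-end reads of 50 bases, checked them with FastQC 0.11.8, trimmed them with Trim Galore 0.6.4, aligned them to GRCm38 with STAR 2.6.1 and counted reads over Ensembl exons with Rsubread. The deposited values are these raw counts per gene, and 1 column that matches no sample was not used. Symbols came from the GRCm38 annotation for 99.6% of genes. The main test was the Wald test of DESeq2 1.42.0 in R 4.3.3 on genes with at least 1 count, over the libraries compared, with Benjamini-Hochberg adjustment over all genes. A gene was called at an adjusted p under 0.05. Alternatives were edgeR 4.0.16 (quasi-likelihood), TMM size factors, a minimum of 10 counts in 2 libraries, one fit of all 17 libraries or lane as a term, the replicate number as a block, leaving out each library, and a GC correction. The correction removed, through gene-wise factors, a loess trend (span 0.5, means of at least 20) of log2 deviations over exonic GC content in each library. Leaving out the 5 libraries with over 10000 summed choroid plexus marker counts was added after seeing the data, for fits, correlations and likeness, and equals leaving out 1 library where a comparison holds 1 of them. The fits were tested on simulated data. Related lists name at most 5 called genes per comparison, by adjusted p, and likeness names the 5 genes with the highest Pearson's r. The members and lists were chosen with earlier results of these data known. Sequences came from RefSeq and GENCODE and motifs were searched in Python 3.11.15.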

Additional observations from a re-analysis of the deposited data

How the results depend on the processing

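Log2 fold changes of the 3 members were computed under 781 alternatives over 45 results, of which 673 kept the direction and the side of the threshold, 45 lost a call, 7 gained a call and 56 changed sign. The changes of sign were in differences that were not called. With edgeR, calls were lost at -0.43 for Mt1 (genotype in PTZ45), -0.40 for Mt3 (Control PTZ45 against Control Sal). The sign changed to 0.0039 for Mt1 (genotype by PTZ45 interaction over Sal) in that setting. With TMM size factors, the sign changed to 0.0090 for Mt1 (genotype by PTZ45 interaction over Sal). With the minimum count filter, calls were lost at -0.43 for Mt1 (genotype in PTZ45). In one fit of all 17 libraries, a call was gained at -0.43 for Mt1 (genotype in Sal). Calls were lost at -0.32 for Mt1 (genotype in PTZ0), -0.43 for Mt1 (genotype in PTZ45), -0.49 for Mt2 (genotype in PTZ0), -0.40 for Mt3 (Control PTZ45 against Control Sal), -0.44 for Mt3 (Control PTZ45 against Control PTZ0), -0.28 for Mt3 (genotype in PTZ0) in that setting. With lane as a term, calls were lost at -0.55 for Mt1 (genotype over all treatments), -0.27 for Mt2 (genotype over all treatments). The sign changed to -0.017 for Mt1 (PTZ45 against PTZ0 over both genotypes), 0.076 for Mt2 (PTZ45 against Sal over both genotypes), 0.084 for Mt3 (genotype over all treatments) in that setting. There PTZ45 against PTZ0 rests on CBP-ifKO libraries alone. After GC correction, calls were lost at -0.43 for Mt2 (genotype in PTZ0), -0.23 for Mt3 (Control PTZ45 against Control Sal), -0.19 for Mt3 (genotype in PTZ0). The sign changed to 0.024 for Mt1 (CBP-ifKO PTZ45 against CBP-ifKO PTZ0), 0.041 for Mt2 (Control PTZ45 against Control PTZ0), 0.064 for Mt2 (PTZ45 against Sal over both genotypes), 0.14 for Mt3 (CBP-ifKO PTZ45 against CBP-ifKO Sal), 0.037 for Mt3 (CBP-ifKO PTZ45 against CBP-ifKO PTZ0) in that setting. With the replicate block, calls were lost at -0.59 for Mt1 (genotype in PTZ45), -0.49 for Mt2 (genotype in PTZ0), -0.48 for Mt3 (Control PTZ45 against Control Sal). The sign changed to -0.056 for Mt3 (genotype in PTZ45) in that setting. With the replicate block and GC correction, calls were lost at -0.26 for Mt1 (genotype in PTZ0), -0.57 for Mt1 (genotype in PTZ45), -0.30 for Mt3 (Control PTZ45 against Control Sal), -0.31 for Mt3 (Control PTZ45 against Control PTZ0), -0.19 for Mt3 (genotype in PTZ0). The sign changed to 0.017 for Mt1 (CBP-ifKO PTZ45 against CBP-ifKO PTZ0), 0.059 for Mt2 (Control PTZ45 against Control PTZ0), 0.072 for Mt2 (PTZ45 against Sal over both genotypes), 0.15 for Mt3 (CBP-ifKO PTZ45 against CBP-ifKO Sal), 0.032 for Mt3 (CBP-ifKO PTZ45 against CBP-ifKO PTZ0) in that setting. Without the libraries rich in choroid plexus markers, calls were lost at -0.32 for Mt1 (genotype in PTZ0), -0.34 for Mt1 (genotype in PTZ45), -0.48 for Mt2 (genotype in PTZ0), -0.26 for Mt2 (genotype over all treatments), -0.34 for Mt3 (Control PTZ45 against Control Sal), -0.16 for Mt3 (genotype in PTZ0). The sign changed to 0.052 for Mt1 (CBP-ifKO PTZ45 against CBP-ifKO PTZ0), 0.12 for Mt2 (Control PTZ0 against Control Sal), 0.025 for Mt2 (PTZ45 against Sal over both genotypes), -0.020 for Mt3 (CBP-ifKO PTZ0 against CBP-ifKO Sal) in that setting. The cause of each change was not tested, and without a library or the 5 libraries fewer samples were compared. With each library left out in turn, the following results changed sign or their side of the threshold at least once, and the others did neither. Values of Mt1 ran from -0.33 to 0.050 (CBP-ifKO PTZ45 against CBP-ifKO Sal), from -0.18 to 0.072 (CBP-ifKO PTZ45 against CBP-ifKO PTZ0), from -0.30 to 0.072 (CBP-ifKO PTZ0 against CBP-ifKO Sal), from -0.66 to -0.28 (genotype in Sal), from -0.38 to -0.26 (genotype in PTZ0), from -0.59 to -0.34 (genotype in PTZ45), from -0.036 to 0.087 (PTZ45 against PTZ0 over both genotypes), from -0.16 to 0.22 (genotype by PTZ45 interaction over Sal). Values of Mt2 ran from -0.13 to 0.041 (Control PTZ45 against Control PTZ0), from -0.14 to 0.052 (Control PTZ0 against Control Sal), from -0.11 to 0.24 (CBP-ifKO PTZ45 against CBP-ifKO Sal), from -0.018 to 0.31 (CBP-ifKO PTZ45 against CBP-ifKO PTZ0), from -0.24 to 0.11 (CBP-ifKO PTZ0 against CBP-ifKO Sal), from -0.66 to -0.30 (genotype in Sal), from -0.58 to -0.40 (genotype in PTZ0), from -0.11 to 0.053 (PTZ45 against Sal over both genotypes), from -0.038 to 0.12 (PTZ45 against PTZ0 over both genotypes), from -0.14 to 0.00048 (PTZ0 against Sal over both genotypes), from -0.0013 to 0.35 (genotype by PTZ45 interaction over Sal). Values of Mt3 ran from -0.48 to -0.32 (Control PTZ45 against Control Sal), from -0.032 to 0.10 (Control PTZ0 against Control Sal), from -0.17 to 0.18 (CBP-ifKO PTZ45 against CBP-ifKO Sal), from -0.22 to 0.030 (CBP-ifKO PTZ45 against CBP-ifKO PTZ0), from -0.10 to 0.25 (CBP-ifKO PTZ0 against CBP-ifKO Sal), from -0.49 to -0.14 (genotype in Sal), from -0.33 to -0.20 (genotype in PTZ0), from -0.056 to 0.19 (genotype in PTZ45), from -0.23 to -0.12 (genotype over all treatments), from -0.33 to -0.15 (PTZ45 against PTZ0 over both genotypes), from -0.028 to 0.11 (PTZ0 against Sal over both genotypes). Leaving out a library of an arm of 2 assumes that the lone sample varies like the others. No adjusted p was given for Mt2 in Control PTZ45 against Control PTZ0 without Control PTZ45 replicate 1, nor for its genotype difference in PTZ0 with the replicate block and GC correction. The correlations of the summed astrocyte markers with Mt1 and Mt3 changed sign as residuals from the group means, to -0.14 and -0.24 (permutation p of 0.714 and 0.499), and were 0.22 and 0.098 as residuals after GC correction. That with Mt2 was 0.31 as residuals. Over the 12 libraries not rich in choroid plexus markers that with Mt3 was -0.36. The number of genes called over the whole table, with its range over the alternatives other than leaving out single libraries, was 204 (Control PTZ45 against Control Sal, range 70 to 243), 225 (Control PTZ45 against Control PTZ0, range 82 to 310), 3 (Control PTZ0 against Control Sal, range 0 to 3), 58 (CBP-ifKO PTZ45 against CBP-ifKO Sal, range 4 to 91), 23 (CBP-ifKO PTZ45 against CBP-ifKO PTZ0, range 8 to 28), 4 (CBP-ifKO PTZ0 against CBP-ifKO Sal, range 0 to 5), 306 (genotype in Sal, range 80 to 614), 852 (genotype in PTZ0, range 160 to 861), 468 (genotype in PTZ45, range 102 to 785), 3606 (genotype over all treatments, range 135 to 3700), 1006 (PTZ45 against Sal over both genotypes, range 11 to 882), 298 (PTZ45 against PTZ0 over both genotypes, range 20 to 309), 0 (PTZ0 against Sal over both genotypes, range 0 to 15), 69 (genotype by PTZ45 interaction over Sal, range 36 to 73), 82 (genotype by PTZ45 interaction over PTZ0, range 49 to 80). With the replicate block alone, 122 (genotype in Sal), 410 (genotype in PTZ0), 102 (genotype in PTZ45), 73 (Control PTZ45 against Control Sal), 94 (Control PTZ45 against Control PTZ0) were called, and with lane as a term 135 (genotype over all treatments). Replicate numbers did not pair the samples, since 15 of the 40 same-numbered pairs of libraries had a correlation of deviations over 0.1 and 7 of 17 libraries were closest to one of their own number. Depth limits Mt2, whose counts of 91 to 335 a library come from 156 bases.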
